A study of Rattus norvegicus with 6 samples.

Results

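Local control of phosphate and pyrophosphate by UMR106-01 cells is described here through 7 genes: the endopeptidase Phex, the phosphatases Alpl and Phospho1, the pyrophosphate producer Enpp1 and exporter Ankh, and the phosphate transporters Slc20a1 and Slc20a2. They were found by symbol, as probe sets whose platform annotation gives exactly 1 gene name. This rule gave these 7 of 14217 genes named in this way, with 9 probe sets. UMR106-01 is a single rat osteosarcoma cell line that behaves in culture like an osteoblast, the cell that makes bone. Plating density was 100000 cells per cm2, serum was present at 10%, cultures were re-fed at 64 h, and RNA for the 6 arrays was taken at 76 h after plating. The 3 AEBSF cultures were re-fed with 6.5 mM beta-glycerol phosphate, an organic phosphate from which mineral can form, and 400 µM AEBSF, a compound that blocks serine proteases irreversibly. The 3 mineralizing cultures received the beta-glycerol phosphate alone. Both groups therefore carry the phosphate load, and the comparison asks what 12 h of the inhibitor does to transcripts of cells that are otherwise set to mineralize.

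Bone mineral forms where the product of calcium and phosphate is high and where inorganic pyrophosphate, which blocks crystal growth, is kept low. Tissue-nonspecific alkaline phosphatase (Alpl) hydrolyses pyrophosphate and releases phosphate from esters such as beta-glycerol phosphate, and PHOSPHO1 releases phosphate from phosphocholine inside matrix vesicles, the membrane sacs in which the earliest mineral appears. ENPP1 makes pyrophosphate from extracellular ATP, and ANKH is a membrane protein needed for release of pyrophosphate and ATP from the cell. PHEX is a zinc endopeptidase on the surface of osteoblasts and osteocytes that cuts peptides derived from bone matrix proteins, and its loss causes hypophosphataemic rickets in humans. Slc20a1 and Slc20a2 encode the sodium-dependent phosphate cotransporters PiT-1 and PiT-2.

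With AEBSF, 3 of the 7 genes fell, 0 rose and 4 did not pass the test. Phex fell to 60.3% of its level in mineralizing cultures (95% interval 55.3% to 65.9%), Phospho1 to 76.6% (68.9% to 85.1%) and Enpp1 to 81.4% (72.3% to 91.6%). The genes that fell thus include an endopeptidase and a phosphatase that favour mineral and an enzyme whose product opposes it. The test was limma on log2 signals of 18625 probe sets, with Benjamini-Hochberg adjustment over all of them and calls were made below 0.05. The brightest probe set stood for its gene, and all 9 probe sets lay above the signal filter. The p-values measure the spread between 3 cultures per group of a single line. By the same rule 9.22% of 9864 tested genes were called lower, 7.09% higher and 16.3% in either direction. Among probe sets, 7.41% were called lower and 5.99% higher. Of the 9 probe sets 0 had an unadjusted limma p below 0.05 in the direction of a rise and 4 in the direction of a fall, against 14.1% and 14.3% of all tested probe sets. The median log2 fold change (AEBSF minus mineralizing) was -0.09 over the 7 genes and 0.0025 over all tested genes.

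**Figure D1:**
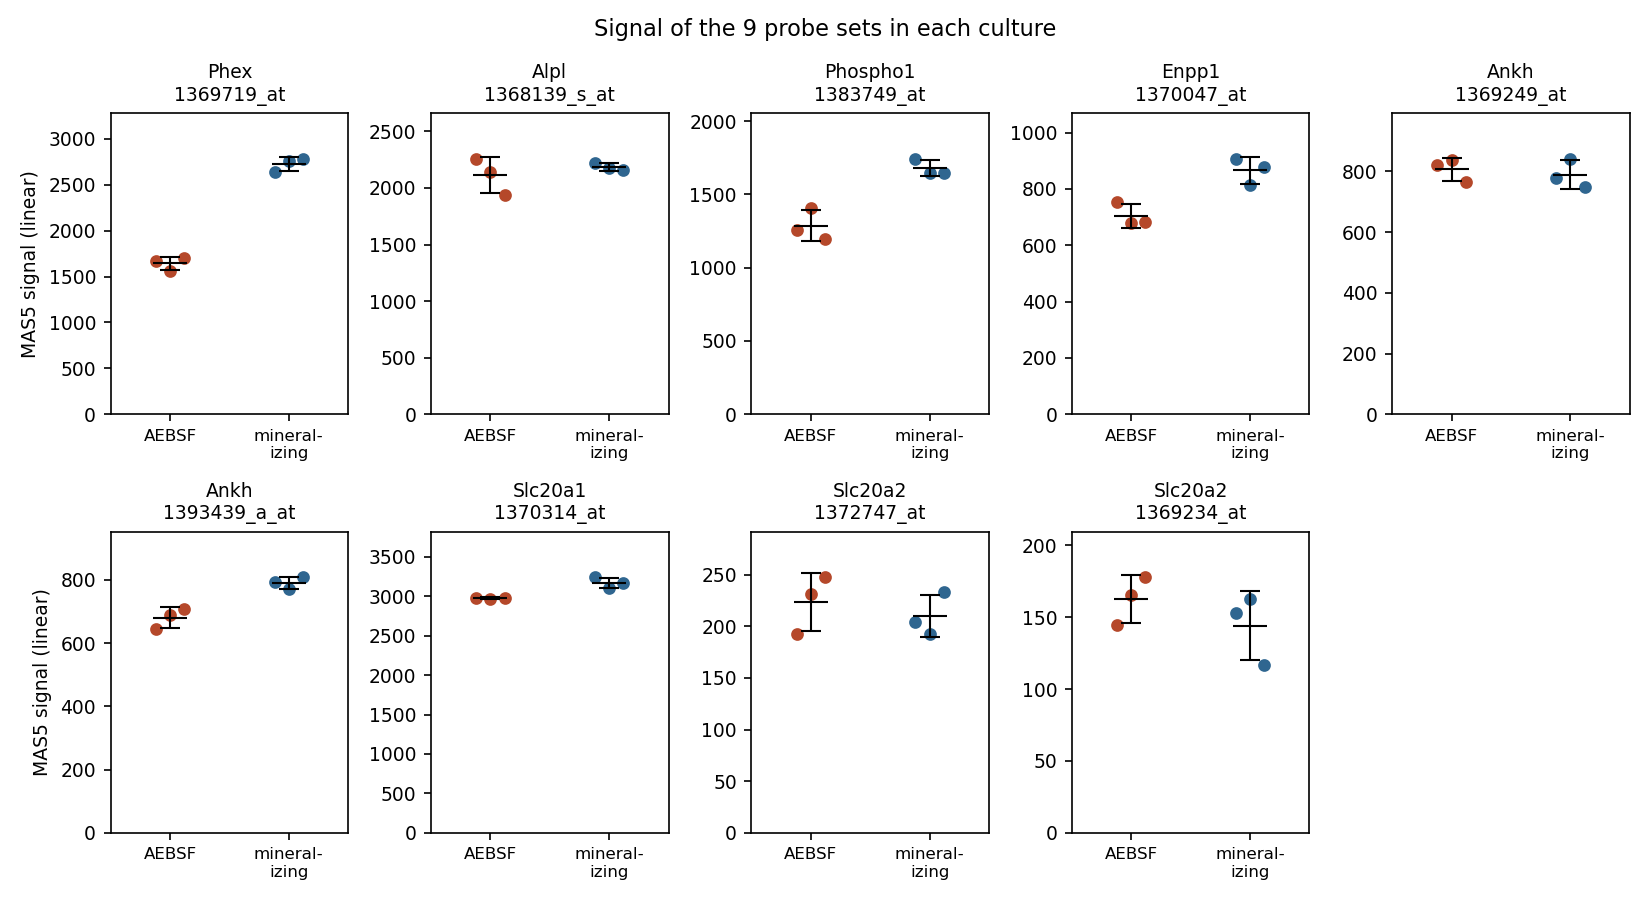
MAS5 signal on a linear scale from 0 (vertical axis) of the 9 probe sets in the 3 AEBSF cultures (left in each panel) and the 3 mineralizing cultures (right), with 1 point per culture and the mean ± SD as a bar. The groups stand apart in Phex, Phospho1, Enpp1, the second Ankh probe set and Slc20a1, with AEBSF lower in all 5, and overlap in the other panels.

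Signals are MAS5 values, which the authors' software scaled so that every array has the same trimmed mean, here 500.15 or 500.16. They give levels relative to the rest of the array, and in such bulk RNA fewer cells of a type and less RNA per cell cannot be told apart. Correlations between arrays on the log2 scale were at least 0.979 for any pair. The ratio of 3' to 5' signal of the Gapdh control was 1.05 to 1.08 in AEBSF cultures and 1.02 to 1.06 in mineralizing cultures, and that of the beta-actin control 1.46 to 1.61 and 1.52 to 1.54 in the same groups; the part of RNA quality in the results was not tested. Hybridization controls averaged 11.22 to 11.36 in AEBSF cultures and 11.05 to 11.21 in mineralizing cultures on the log2 scale. Scaling the arrays to these 9 control probe sets put the median change over all tested probe sets at -0.11 on the log2 scale, against 0.012 as deposited, and the calls to 162 higher and 2123 lower, against 1115 higher and 1380 lower. The 3 falls passed with either scaling, and changes are given here relative to the other genes of the array.

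Of the markers of osteoblasts, 9 of 12 were measured and 8 tested. Of these, 2 fell and 0 rose, against 9.22% and 7.09% of all tested genes. Among the 8, 7 had log2 fold changes below 0, the median was -0.16, and 3 had an unadjusted limma p below 0.05, all in the direction of a fall (Col1a2, Col1a1 and Dlx5). Falls with such a p made up 14.3% of all tested probe sets. The summed signal of the 9 measured markers, Alpl among them, was 26214 to 27547 in AEBSF cultures and 28371 to 29742 in mineralizing cultures, and its part in the results was not tested. Ibsp, the 1 with a value above 0, which encodes bone sialoprotein, had 17101 ± 251 in AEBSF cultures and 16520 ± 750 in mineralizing cultures, and the parathyroid hormone receptor gene Pth1r had 2220 ± 175 and 2407 ± 27.0 (SD, n = 3 each). The collagen genes Col1a2 and Col1a1 fell (log2 fold change -1.13 and -0.67), while Bglap, the gene of osteocalcin, lay below the filter in both groups. Most of the lower sum of osteoblast markers lay in these 2 collagen genes. Mean signals were 1534 in AEBSF and 3334 in mineralizing cultures for Col1a2, and 617 and 982 for Col1a1. Of 37 measured markers of macrophages and osteoclasts, adipocytes, chondrocytes, muscle and endothelium, 29 lay below the filter, and of the 8 tested 1 fell and 0 rose. That was Hapln1, a link protein of cartilage matrix, at 233 ± 31.1 in AEBSF cultures and 325 ± 23.2 in mineralizing cultures, while the cartilage collagens Col2a1, Col9a1 and Col10a1 lay below the filter. The summed signal of the 7 chondrocyte markers was 499.6 to 552 in AEBSF cultures and 558 to 694 in mineralizing cultures, and its part in the results was not tested. Most of this lower sum lay in Hapln1.

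Phex had signals of 1670, 1562 and 1701 in the AEBSF cultures, against 2636, 2757 and 2782 in the mineralizing cultures. The groups lay far apart, with each group close together. The fall was 1.66-fold (limma adjusted p = 3.36e-05), or -0.73 on the log2 scale with an SE of 0.06. Among the 909 genes called lower, Phex took place 102 by size of fold change, and 200 of the 909 fell at least 1.5-fold. All 17 alternative settings gave a fall of Phex past the threshold, with log2 fold changes between -0.85 and -0.69. Of the 7 genes, Phex alone lay outside the range from the 5th to the 95th percentile of all tested genes (-0.46 to 0.35).

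Genes whose profile over the 6 arrays was most like that of Phex were sought among 9863 others, by the root mean square difference of log2 signals after each gene was centred on its own mean. Casp4, an inflammatory caspase, came closest (0.027 log2 units), with 1043 ± 67.3 in AEBSF cultures and 1742 ± 76.1 in mineralizing cultures. Next were Bnip3l (0.032), which encodes a receptor for the removal of mitochondria, and Hsd17b11 (0.036), a dehydrogenase found on lipid droplets. LOC102555644 (0.039) and Inhba (0.046), which encodes the subunit of activin A, followed. These 5 genes fell between 1.57- and 1.67-fold. A fall near that of Phex follows from choosing the nearest profiles and is not a separate result. The likeness is a description over 6 arrays in 2 groups.

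The metalloendopeptidase family of Phex gave 1 fall among 3 tested genes, against 9.22% of all tested genes, and 3 more lay below the filter. Mme, which encodes neprilysin, a close relative of PHEX that degrades peptides at the cell surface, had 433, 388 and 457 in AEBSF cultures, against 666, 659 and 583 in mineralizing cultures. Its groups did not overlap, and it fell to 67.0% of the mineralizing level (log2 fold change -0.58 with an SE of 0.10, limma adjusted p = 0.00305). The endothelin-converting enzyme genes Ece1 and Ece2 did not pass, with log2 fold changes of -0.31 and 0.19 (limma adjusted p = 0.193 and 0.722).

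The phosphatases gave unlike values. Phospho1 had 1259, 1405 and 1199 in AEBSF cultures, against 1742, 1644 and 1650 in mineralizing cultures. The highest AEBSF value lay below the lowest mineralizing one, and the fall was 1.31-fold (limma adjusted p = 0.00488), or -0.38 on the log2 scale with an SE of 0.07. It kept its side of the threshold in 16 of 17 alternatives and missed it with a constant variance prior (limma adjusted p = 0.0537). Alpl had 2256, 2141 and 1942 in AEBSF cultures, against 2223, 2174 and 2160 in mineralizing cultures. These ranges overlap, with AEBSF culture 1 above and AEBSF cultures 2 and 3 below every mineralizing culture. The log2 fold change of Alpl was -0.05 (95% interval -0.19 to 0.09, limma adjusted p = 0.643), and the interval of its level with AEBSF ran from 87.6% to 106% of that in mineralizing cultures. Its single probe set carries the suffix s, which in this array's naming marks probes that transcripts of several genes may share, so its value may not be of Alpl alone.

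RefSeq promoter windows in assembly GRCr8, from 250 bases before to 50 after the annotated start, were at hand for 3 of the 7 genes, Phospho1, Alpl and Ankh. The windows of the 2 phosphatases are shown. Whether the changes of these 2 transcripts differ, and any part of the promoter in them, was not tested. The window of Phospho1 is chr10:81258560-81258859 on the plus strand and that of Alpl is chr5:155289736-155290035 on the minus strand. Capitals mark matches on either strand to TGANTCA (AP-1) and TGACGTG (UPRE, which contains TGACG, part of the CRE).
Phospho1: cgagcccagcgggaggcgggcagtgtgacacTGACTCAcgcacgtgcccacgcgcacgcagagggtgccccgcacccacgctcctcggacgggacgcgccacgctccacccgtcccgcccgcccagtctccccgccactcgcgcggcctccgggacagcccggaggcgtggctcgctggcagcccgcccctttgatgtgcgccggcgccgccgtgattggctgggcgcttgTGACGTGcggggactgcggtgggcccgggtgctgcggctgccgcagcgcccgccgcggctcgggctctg
Alpl: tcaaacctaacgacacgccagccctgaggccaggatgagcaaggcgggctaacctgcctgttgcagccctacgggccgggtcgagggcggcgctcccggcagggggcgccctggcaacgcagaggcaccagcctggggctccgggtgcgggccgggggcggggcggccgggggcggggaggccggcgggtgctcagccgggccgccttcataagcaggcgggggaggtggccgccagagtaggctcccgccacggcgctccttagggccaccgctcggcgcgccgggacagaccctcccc
Phospho1 has a match to TGANTCA starting 219 bases before the start and a match to TGACGTG starting 19 bases before it. Alpl and Ankh have a match to neither. Over 33469 promoter windows of that length, TGANTCA was found in 7.33%, TGACG in 21.2% and TGACGTG in 1.81%. A match to CANNTG (E-box, not in capitals), held by 72.1% of all windows, was found in Phospho1 among the 3. ACCACA (RUNX), in 17.3% of windows, and the ERSE, which is CCAAT and CCACG with 9 bases between and was found in 0.0657%, had no match in the 3 windows. All 3 windows are rich in G and C, at 77.3%, 76.3% and 78.3% for Phospho1, Alpl and Ankh, against a median of 51.7% over all windows. These matches describe letters and not binding.

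**Figure D2:**
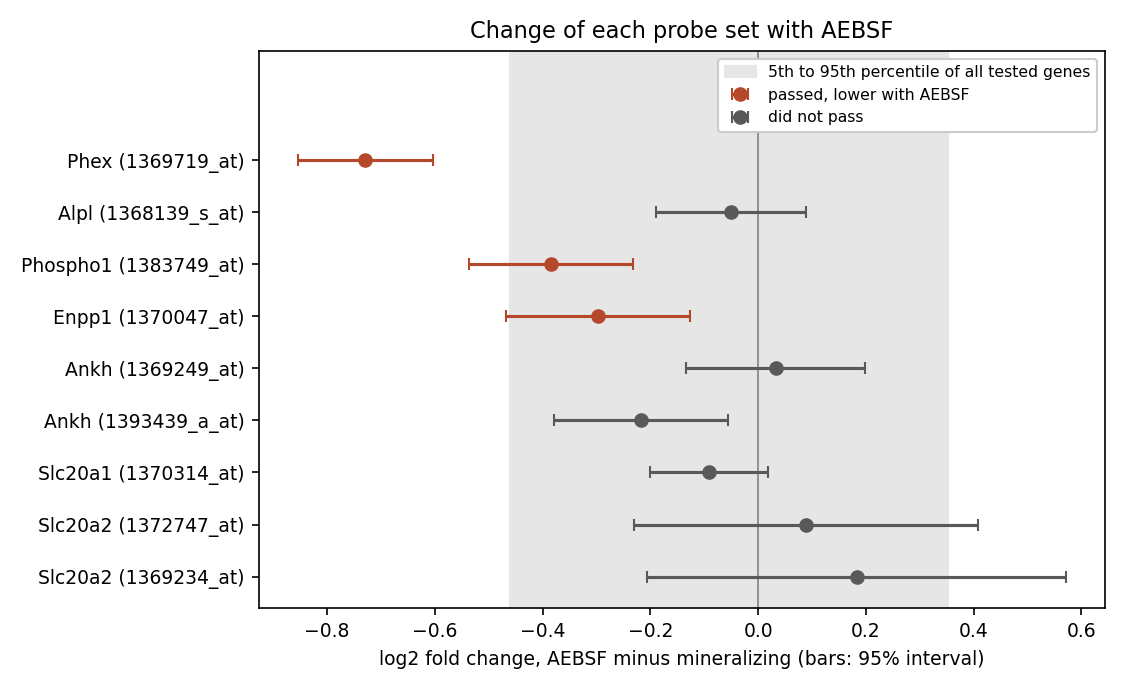
Log2 fold change, AEBSF minus mineralizing (horizontal axis), of the 9 probe sets with 95% intervals from limma as bars, and the 5th to 95th percentile of all tested genes as a grey band. Phex lies left of the band, Phospho1 and Enpp1 lie within it with intervals below 0, and the other intervals hold 0 except that of the second Ankh probe set.

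The profile nearest to that of Phospho1 was Ccdc134 (0.033 log2 units), followed by Pfkm (0.035), the muscle-type phosphofructokinase gene of glycolysis. Pfkm had 1411 ± 63.3 in AEBSF cultures and 1837 ± 37.5 in mineralizing cultures. Chd3, Fam114a1 and Ddah2 came after them, at 0.048 to 0.051. Of the 5 genes, Ddah2 alone did not pass (limma adjusted p = 0.0689).

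The list named for supply of phosphocholine and phosphoethanolamine, substrates of PHOSPHO1, gave 0 calls among 13 tested genes in limma, against 16.3% of all tested genes. It also holds choline transporters and enzymes that use these substrates or act at later steps. Of the 13, 1 had an unadjusted limma p below 0.05, in the direction of a rise. That was the choline kinase gene Chkb, named after its values were seen (log2 fold change 0.20, limma adjusted p = 0.0517), which passed after quantile normalization (0.0475) and did not with arrays scaled to hybridization controls (0.08, 0.696). Smpd3, a sphingomyelinase that yields phosphocholine and is needed for bone mineral in mice, had 5397, 4709 and 4979 in AEBSF cultures, against 4973, 5074 and 4611 in mineralizing cultures. These ranges overlap (log2 fold change 0.04, 95% interval -0.10 to 0.18). The ethanolamine kinase gene Etnk1 and the acid sphingomyelinase gene Smpd1 had log2 fold changes of -0.0018 and -0.15 (limma adjusted p = 0.985 and 0.222). The choline transporter gene Slc44a1, named after its values were seen, did not pass by its brightest probe set (log2 fold change -0.09) but fell by another (-0.41, limma adjusted p = 0.00885). Its remaining, dimmer probe set lay lower with AEBSF without overlap and did not pass (-0.37, limma adjusted p = 0.168). The list median was 0.0052.

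Of other phosphatases known from bone cells, 1 of 6 tested genes fell and 0 rose, against 9.22% and 7.09% of all tested genes. It was Ptprz1, a receptor tyrosine phosphatase, with 206, 228 and 212 in AEBSF cultures, against 337, 379 and 418 in mineralizing cultures. The groups did not overlap (log2 fold change -0.81 with an SE of 0.12, limma adjusted p = 0.00177). Acp1, Pgp and Acp6 had log2 fold changes of 0.07, 0.15 and 0.06 and did not pass.

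On the pyrophosphate side, Enpp1 had 754, 678 and 683 in AEBSF cultures, against 906, 814 and 879 in mineralizing cultures. The groups did not overlap, and the fall was 1.23-fold (limma adjusted p = 0.0281), or -0.30 on the log2 scale with an SE of 0.08. This call held in 12 of 17 alternatives. The limma adjusted p was 0.0686 and 0.0586 without AEBSF culture 2 or 3, and 0.117 and 0.0854 without mineralizing culture 1 or 3. With a constant variance prior it was 0.0841. The log2 fold change stayed between -0.35 and -0.26 with 1 culture left out. The profile nearest to that of Enpp1 was Nfkbia (0.029 log2 units), the inhibitor of NF-kappaB, followed by Zfand1, Stk38l, Rnf5 and Tmem50a (0.033 to 0.036). Among these, Stk38l alone did not pass (limma adjusted p = 0.0709).

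Ankh did not pass by either of its probe sets, and the 2 gave different values. Their means were 790 and 790 in mineralizing cultures and 807 and 680 in AEBSF cultures. Which of them counts as brighter, and so stands for Ankh, was thus set by the AEBSF cultures. With the probe sets averaged, the log2 fold change of Ankh was -0.09 and did not pass (limma adjusted p = 0.34). The brighter had 822, 836 and 764 in AEBSF cultures, against 778, 841 and 750 in mineralizing cultures, and the ranges overlap (log2 fold change 0.03, 95% interval -0.13 to 0.20, limma adjusted p = 0.824). The second had 643, 690 and 706, against 793, 769 and 807 in mineralizing cultures. Here every AEBSF value lay below every mineralizing one (log2 fold change -0.22, 95% interval -0.38 to -0.06, limma adjusted p = 0.0746). It passed in 1 of 16 alternatives, the scaling to hybridization controls (limma adjusted p = 0.0445). The second carries the suffix a, which marks probes for alternative transcripts of 1 gene. The difference between the probe sets on the log2 scale averaged -0.25 ± 0.12 in AEBSF cultures and 0.0015 ± 0.12 in mineralizing cultures (SD, n = 3 each; exact two-sided permutation p = 0.2, where 3 against 3 arrays allow 0.1 at best).

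Of the other members of the Enpp family, Enpp2 and Enpp3 fell as well; whether their changes differ from that of Enpp1 was not tested. Enpp2, which encodes autotaxin, a secreted lysophospholipase, had 1611, 1477 and 1769 in AEBSF cultures, against 2975, 3084 and 3130 in mineralizing cultures. With no overlap between groups, it fell 1.90-fold, to 52.7% of the mineralizing level (limma adjusted p = 2.02e-05), or -0.92 on the log2 scale with an SE of 0.07. Enpp3, a membrane nucleotide pyrophosphatase, fell to 177 ± 13.1 in AEBSF cultures, against 313 ± 39.6 in mineralizing cultures (log2 fold change -0.82 with an SE of 0.14, limma adjusted p = 0.0032). Enpp4 and Enpp5, named after their values were seen, had log2 fold changes of -0.30 and -0.31 and missed the threshold (limma adjusted p = 0.0697 and 0.0599), but passed with arrays scaled to hybridization controls (0.0458 and 0.0194). Counting Enpp1, whose call held in 12 of 17 alternatives, 3 of 5 tested Enpp genes fell and 0 rose. Over all tested genes the shares were 9.22% and 7.09%. Enpp6 lay below the filter.

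In the list of pyrophosphate and extracellular nucleotide genes, which leaves Enpp1 and Ankh out, falls numbered 3 and rises 1 among 11 tested genes. The shares over all tested genes were 9.22% and 7.09%. The median log2 fold change was -0.19. Besides Enpp2 and Enpp3 the fall was in Entpd3, a membrane enzyme that hydrolyses nucleotides, with 141, 193 and 139 in AEBSF cultures, against 252, 220 and 234 in mineralizing cultures. Its call (limma adjusted p = 0.0331) held in 8 of 16 alternatives. It was lost without AEBSF culture 1 or 3 or mineralizing culture 1, 2 or 3 (limma adjusted p = 0.0987, 0.0849, 0.118, 0.0694 and 0.0813), with the replicate number as a block (0.0566), with a constant variance prior (0.0672) and when dim probe sets were kept (0.064). Ppa1, the inorganic pyrophosphatase of the cytosol, rose, with 7986, 8194 and 7918 in AEBSF cultures, against 6275, 6492 and 6740 in mineralizing cultures. The groups did not overlap (log2 fold change 0.31 with an SE of 0.05, limma adjusted p = 0.00293), but the rise did not pass with arrays scaled to hybridization controls (log2 fold change 0.18, limma adjusted p = 0.127) or with a constant variance prior (0.0533).

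Neither phosphate transporter passed. Slc20a1 had 2985, 2968 and 2980 in AEBSF cultures, against 3240, 3110 and 3173 in mineralizing cultures. The AEBSF values lay close together and below every mineralizing value, yet the difference was small (log2 fold change -0.09, 95% interval -0.20 to 0.02, limma adjusted p = 0.255). A separation of this kind, with AEBSF lower, was found in 5 of the 9 probe sets and in 16.5% of all tested probe sets; separation in either direction was found in 32.7%.

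Slc20a2 was read by a pair of dimmer probe sets, and both had wide intervals. The brighter had 193, 231 and 247 in AEBSF cultures, against 204, 193 and 233 in mineralizing cultures (log2 fold change 0.09, 95% interval -0.23 to 0.41). The other had 145, 166 and 178, against 153, 163 and 117 in mineralizing cultures (0.18, 95% interval -0.21 to 0.57). Groups overlap in both, and neither passed (limma adjusted p = 0.737 and 0.543).

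**Figure D3:**
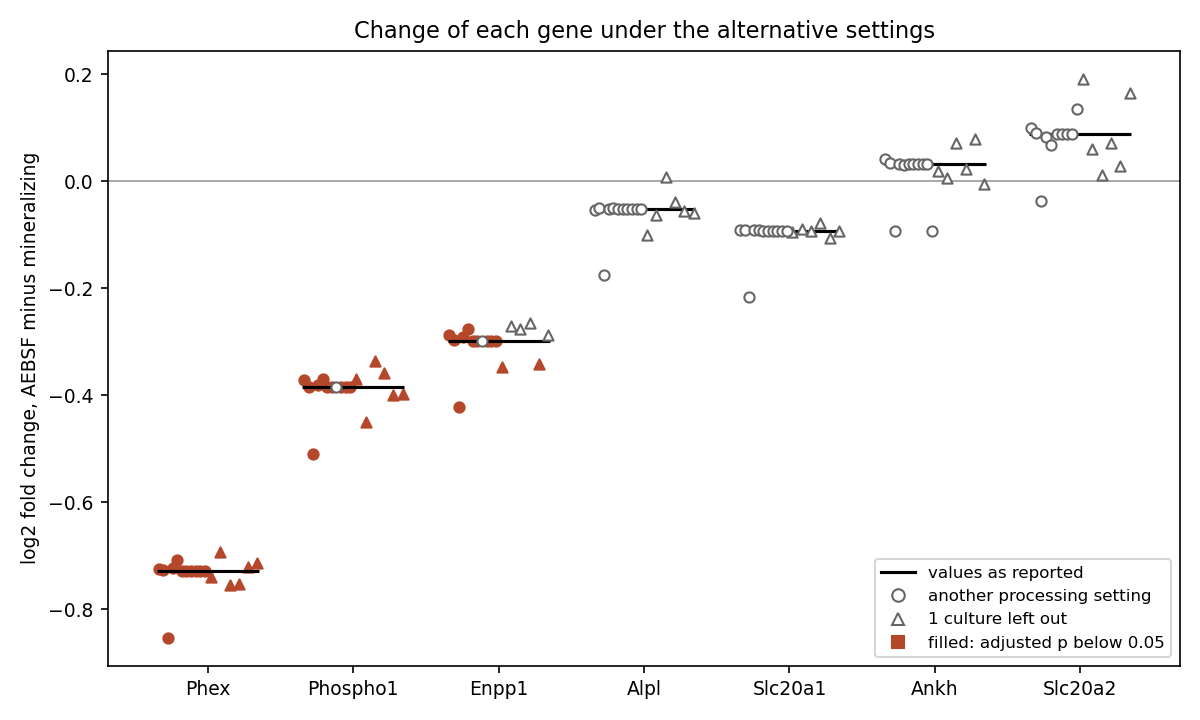
Log2 fold change, AEBSF minus mineralizing (vertical axis), of the 7 genes as reported (black line), under other processing settings (circles) and with 1 culture left out (triangles), filled where the limma adjusted p was below 0.05. Phex passed throughout, Phospho1 in 16 of 17 alternatives and Enpp1 in 12 of 17, and the other 4 genes in 0.

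Among other genes of phosphate transport and sensing, 1 of 6 tested fell and 0 rose, against 9.22% and 7.09% of all tested genes. Another 5, the type II cotransporter genes Slc34a1, Slc34a2 and Slc34a3 among them, lay below the filter. Stc1, which encodes stanniocalcin-1, a secreted glycoprotein that affects calcium and phosphate transport, had 575, 531 and 498 in AEBSF cultures, against 652, 693 and 793 in mineralizing cultures. The groups did not overlap (log2 fold change -0.41 with an SE of 0.10, limma adjusted p = 0.0163). A second Stc1 probe set also fell (-0.43, limma adjusted p = 0.0197), while the remaining, dimmer one did not pass (-0.27, limma adjusted p = 0.429). The call was lost without mineralizing culture 3 and with a constant variance prior (limma adjusted p = 0.0677 and 0.0687). The phosphate exporter gene Xpr1, the mitochondrial phosphate carrier gene Slc25a3 and Slc37a4 had log2 fold changes of -0.12, -0.04 and -0.06 and did not pass (limma adjusted p = 0.251, 0.697 and 0.516).

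In the axis of FGF23, the bone hormone that lowers blood phosphate, 1 of 7 tested genes rose and 0 fell. Over all tested genes 7.09% rose and 9.22% fell. Cyp27b1, which makes active vitamin D, had 163, 176 and 141 in AEBSF cultures, against 88.4, 94.1 and 103 in mineralizing cultures. The groups did not overlap (log2 fold change 0.75 with an SE of 0.18, limma adjusted p = 0.0189). The rise was not past the threshold with arrays scaled to hybridization controls (limma adjusted p = 0.0612) or without AEBSF culture 1 or 2 or mineralizing culture 1 or 2 (0.0569, 0.0586, 0.0672 and 0.0568). Pth1r and the receptor genes Fgfr1 and Fgfr3 had log2 fold changes of -0.12, -0.10 and 0.08 and did not pass. A further 6 measured genes of this list, among them Fgf23 itself, Dmp1 and Mepe, lay below the filter and were not tested.

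Proteins of matrix vesicles and of calcification gave 4 falls and 0 rises among 13 tested genes, against 9.22% and 7.09% of all tested genes. The list median was -0.17. The calcium-binding protein genes S100a4 and S100a6 fell to 567 ± 20.7 and 667 ± 43.4 in AEBSF cultures, against 825 ± 13.7 and 952 ± 20.4 in mineralizing cultures. Anxa5, an annexin abundant in matrix vesicles, had 3096, 2902 and 2901 in AEBSF cultures, against 3520, 3578 and 3740 in mineralizing cultures. The groups did not overlap (log2 fold change -0.28 with an SE of 0.05, limma adjusted p = 0.00627), and the call was lost with a constant variance prior (0.0656). Anxa4 fell by 0.35 on the log2 scale (limma adjusted p = 0.0102), while its dimmer probe set missed the threshold (-0.34, 0.0651). Of the 6 annexins on the list 2 fell as deposited. Anxa3, Anxa8 and Anxa11, which the list leaves out, were tested too and did not pass (limma adjusted p = 0.32, 0.14 and 0.968). Anxa2, named after its values were seen, missed the threshold (log2 fold change -0.20, limma adjusted p = 0.0529) but passed after quantile normalization and with arrays scaled to hybridization controls (0.00477 and 0.00817).

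**Figure D4:**
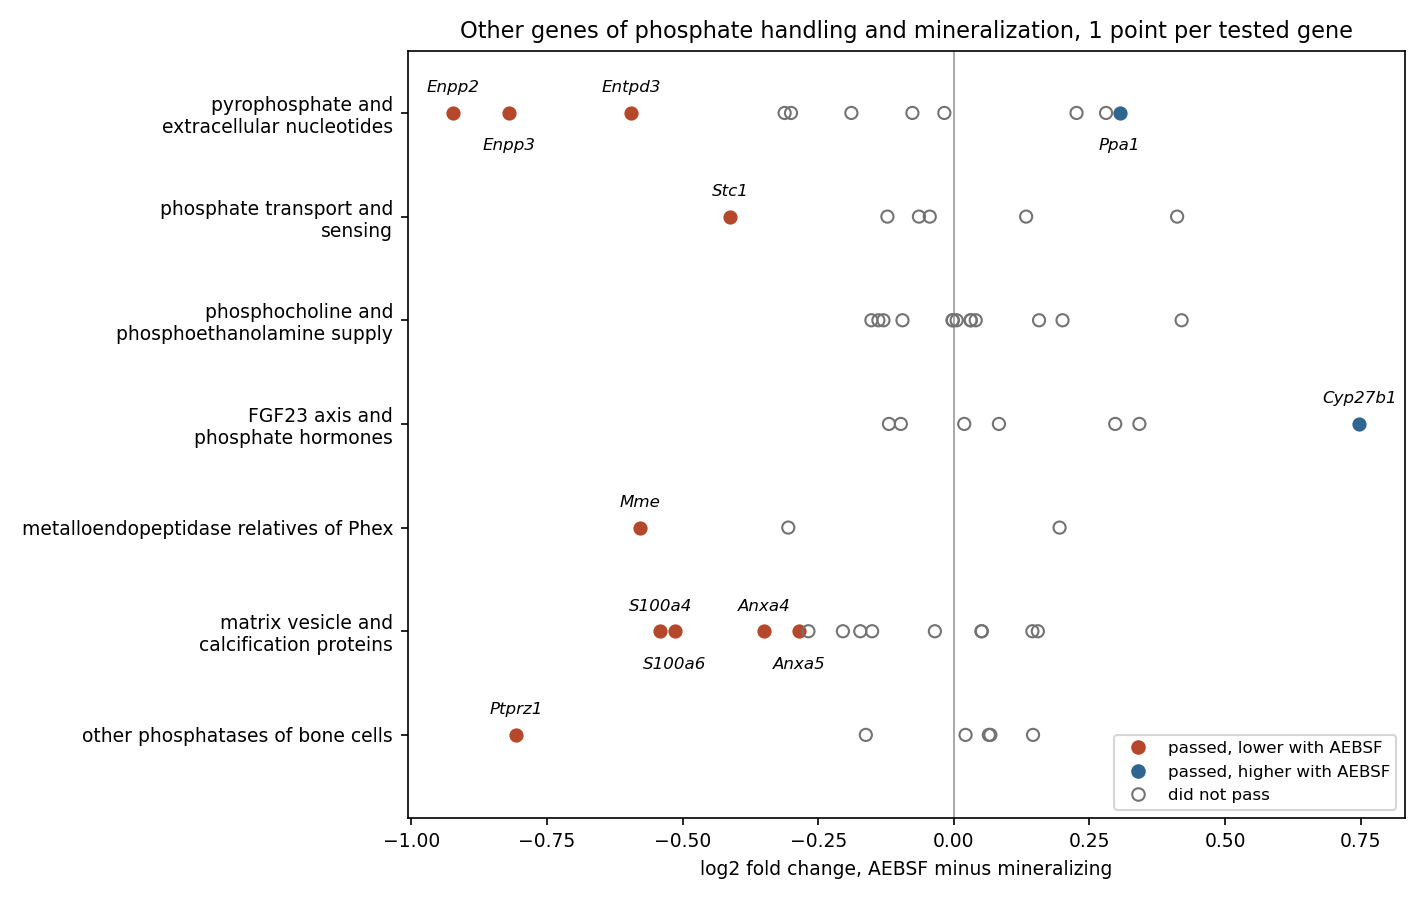
Log2 fold change, AEBSF minus mineralizing (horizontal axis), of the 59 tested genes of the 7 lists, 1 point per gene and list in a row each, with genes that passed filled and named. Falls number 10 and rises 2, with 4 of the falls in the list of matrix vesicle proteins and 0 in that of phosphocholine supply.

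Over the 7 lists together, 84 of 87 genes were measured, 25 lay below the filter and 59 were tested. Falls numbered 10, rises 2 and genes that did not pass 47. Over all tested genes, 9.22% were called lower and 7.09% higher. The median log2 fold change was -0.03 over the 59 genes of the lists and 0.0025 over all tested genes. With arrays scaled to hybridization controls neither rise passed.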

How the data were processed

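RNA of 6 UMR106-01 cultures was measured on 1 Affymetrix rat array each, with groups and replicate numbers taken from the sample titles. The deposited values are linear intensities, 1 for every probe set on an array; the submitters' processing notes name MAS5 and GCOS, without versions. No scaling target or detection call was used here. The values were positive and not log transformed.

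Probe sets were named from the platform annotation (20826 of 31042 with 1 symbol, 436 with several, 9780 unnamed here). For 20758 of those with 1 symbol, the current RefSeq (GRCr8) symbol was used, whether or not it differed. Log2 signals were tested in R 4.3.3 with limma 3.58.1 (lmFit, eBayes with a trended prior) for AEBSF minus mineralizing. Tested were 18625 probe sets with a mean log2 signal above the 40th percentile (a signal of 67.2), without the 57 controls, and p-values were adjusted over all of them (Benjamini-Hochberg). Precision is limited by 3 arrays per group.

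Members, lists, naming rule and alternatives were chosen with earlier results of these data known. Named were all members, and of each list up to 6 genes past the threshold by size, or, where fewer than 2 passed, these and up to 3 with the highest mean signal, and the 5 profiles nearest to Phex, Phospho1 and Enpp1. Same-numbered cultures were not treated as pairs, since the labels state no pairing. Their deviations from the group means correlated at 0.011, -0.119 and -0.036, which cannot show whether the cultures were paired. Alternatives covered scaling, added constants, filter, prior, replicate block, probe set averaging and leaving out each culture.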

Additional observations from a re-analysis of the deposited data

How the results depend on the processing

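Phex passed in all 17 alternatives (log2 fold change -0.85 to -0.69), and Phospho1 in 16, missing the threshold with a constant variance prior (-0.38, limma adjusted p = 0.0537). Enpp1 did so there too (-0.30, 0.0841), and ranged from -0.35 to -0.26 with 1 culture left out. The number of the 7 genes past the threshold was 1 with a constant prior and 2 to 3 without 1 culture. Alpl, Ankh, Slc20a1 and Slc20a2 passed in 0 of their alternatives, and fold changes of Alpl, Ankh and Slc20a2 lay on both sides of 0.

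Over all probe sets, 885 passed with a constant prior (285 higher and 600 lower), and 1200 to 2250 without 1 culture (488 to 995 higher and 712 to 1255 lower), against 2495. Without a signal filter 710 were higher, and scaled to hybridization controls 162 were higher and 2123 lower. Of the pathway genes, 0 were higher with that scaling, 1 with a constant prior and 1 to 2 without 1 culture, and the total without 1 culture was 10 to 13. With a gene's probe sets averaged, 17 pathway genes passed, 14 lower and 3 higher, against 12 as reported. With the replicate number as a block, 1802 probe sets and the same count of 3 member genes passed, and the block changed the call of Entpd3 alone among the genes with a range of settings. Causes of these shifts were not tested.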

Other observations

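Some genes of phosphate control had signals too low for the filter, so no test was run on them. Of 25 such genes, 3 (12%) had all AEBSF values below all mineralizing values and 2 (8%) the opposite, against 6.36% and 4.73% of all 4353 named genes below the filter. With so few genes the counts are given as a description. Fgf23, the gene of the phosphate-lowering hormone, had signals of 4.25, 8.91 and 16.4 in AEBSF cultures, against 38.4, 27.7 and 28.3 in mineralizing cultures. Dmp1, a matrix protein gene of osteocytes, had 48.8 ± 6.70 in AEBSF cultures and 69.3 ± 8.68 in mineralizing cultures (SD, n = 3 each). Acp5, the tartrate-resistant acid phosphatase gene, had 30.9 ± 5.86 and 46.4 ± 4.42 in the same groups. Mmel1, a relative of Mme and Phex, lay higher with AEBSF, at 79.2 ± 13.1 against 54.5 ± 5.46 in mineralizing cultures, and Bglap, with signals of at most 7.46 on any array, did so too. Signals this low came without a detection call here, so presence of the transcript cannot be read from them.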
